A study of Mus musculus with 9 samples.

Results

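The BCL2 family decides whether a cell keeps its mitochondrial outer membrane intact. 10 of its genes are described here, taken from the deposited table by their symbols alone: the anti-apoptotic Bcl2, Bcl2l1 (which encodes BCL-XL) and Mcl1, the pore-forming effectors Bax and Bak1, and the BH3-only genes Bcl2l11 (BIM), Bid, Bad, Bbc3 (PUMA) and Pmaip1 (NOXA). All 10 were found among the 26683 genes of the table, and all 10 were among the 12738 genes with enough counts to be tested. Anti-apoptotic proteins hold the effectors and the BH3-only proteins in check. BH3-only proteins are induced or activated by stress, by loss of cytokine or by DNA damage, and they release or activate BAX and BAK, whose pores let cytochrome c out and start the caspase cascade. In regulatory T cells (Treg cells, the Foxp3-expressing CD4 T cells that restrain immune responses), MCL1 is known to be required for survival, BIM is known to drive their death when interleukin-2 is scarce, and BCL2 is known to be raised by cytokine signals through STAT5.

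RNA was sequenced from CD4+ Foxp3+ Treg cells isolated from the spleen, with 1 library per mouse, each labelled female and 2 to 3 months old. The control group (WT, n = 5) is labelled B6N.Foxp3YFP-Cre and the knockout group (KO, n = 4) EsrrgNf/f.Foxp3YFP-Cre, so that both carry the Foxp3 YFP-Cre allele, in which the Foxp3 locus drives a yellow fluorescent protein fused to Cre recombinase, and KO carries in addition the floxed allele of Esrrg, the gene of the nuclear receptor ERR gamma. The labels name B6N for WT only, so a difference of colony or substrain cannot be told apart from the genotype. The comparison asks how the transcripts that set survival differ in Treg cells when Esrrg is targeted.

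Total counts ran from 15269014 to 17425634 per library, and 2847 genes had no count in any. Levels are CPM, a gene's counts per 1000000 counts of its library, scaled by the trimmed mean of M-values (TMM), with scaling factors between 0.982 and 1.01. Foxp3, the defining gene of Treg cells, had a mean of 574 ± 25.9 (SD) in the 5 WT and of 575 ± 31.7 CPM in the 4 KO libraries, and the T cell genes Cd4 (923 and 962 CPM) and Cd3e (498 and 526 CPM, WT and KO means) were high too. Esrrg had 0 counts in all 9 libraries, which allows up to 0.0371 CPM over the 5 WT libraries together (3 counts, counting error only), so its loss could not be checked. 2 KO libraries stood apart: immunoglobulin genes took 0.296% of counts in KO 1 and 0.798% in KO 4 against 0.101% to 0.158% in the other 7 libraries, and KO 4 held 27 counts of Xist against at least 27355 elsewhere, which goes against its label as female. Fold changes without KO 1 and KO 4 are given where they move a value or a call most.

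The sequences upstream of 3 members come first, because these were the members with an unadjusted p under 0.05 and a lower level in KO, chosen after their values were seen. Each is the 250 bases before a RefSeq transcript start on GRCm38.p6, read 5′ to 3′ on the gene's strand, and capitals mark matches to a FOXO motif (GTAAACA) or a GC box (GGGCGG) on either strand. They are Bcl2 (minus strand, chr1:106714291-106714540), the first of 2 starts of Bcl2l11 (plus strand, chr2:128125788-128126037) and the second of 3 starts of Bbc3 (plus strand, chr7:16310011-16310260). For Bcl2l11 and Bbc3 the start shown is the one with a FOXO match, and the other starts of both have 0. The Bbc3 stretch lies inside the annotated span of the gene (16308393 to 16318205), so it is upstream of that start only.
Bcl2: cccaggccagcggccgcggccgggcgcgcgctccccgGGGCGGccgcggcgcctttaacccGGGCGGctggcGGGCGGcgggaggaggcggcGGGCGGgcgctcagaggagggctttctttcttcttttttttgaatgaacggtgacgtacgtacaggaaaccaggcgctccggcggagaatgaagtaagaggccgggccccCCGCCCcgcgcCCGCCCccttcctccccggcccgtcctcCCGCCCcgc
Bcl2l11: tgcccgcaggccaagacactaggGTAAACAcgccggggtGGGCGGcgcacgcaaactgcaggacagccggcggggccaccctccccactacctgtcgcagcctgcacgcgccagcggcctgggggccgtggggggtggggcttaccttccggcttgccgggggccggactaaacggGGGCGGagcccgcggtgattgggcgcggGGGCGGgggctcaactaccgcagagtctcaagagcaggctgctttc
Bbc3: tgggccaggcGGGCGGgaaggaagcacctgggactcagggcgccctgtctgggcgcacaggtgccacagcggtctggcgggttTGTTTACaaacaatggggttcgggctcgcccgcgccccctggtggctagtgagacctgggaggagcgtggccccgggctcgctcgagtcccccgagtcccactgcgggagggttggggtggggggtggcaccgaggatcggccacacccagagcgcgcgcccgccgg
The Bcl2 stretch is 74.8% G and C and holds 7 GC boxes, that of Bcl2l11 holds 3 and 1 FOXO match, and that of Bbc3 holds 1 of each. FOXO factors are known activators of Bcl2l11 and Bbc3 when growth signals are withdrawn. The table of promoters (250 bases before to 50 after each start) had 15 entries for 9 of the members and none for Pmaip1. The FOXO motif was in 2 of these 15 and in 3.65% of all 32851 promoters, and the GC box in 10 of 15 and in 35.7%. The estrogen-related receptor half-site TNAAGGTCA, the motif bound by the product of the targeted gene, was in 0 of 15 and in 1.28% of all, and the STAT motif TTCNNNGAA in 0 of 15 and in 8.30%. Several of the 15 entries are starts of the same gene. With so few entries, counts of 0 for motifs this rare cannot show whether the family differs from all promoters. A match here is a match of letters, with no binding measured.

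In control Treg cells the transcripts of this family covered a wide range. Compared per kb of exon (CPM divided by the summed length of the gene's exons), Mcl1, the short-lived inhibitor of BAK and BIM, stood first with 210 ± 8.33 CPM per kb (SD, n = 5). Bcl2 followed at 50.9 ± 4.26 and the effector Bax at 42.9 ± 2.67 CPM per kb. The WT libraries of Mcl1 lay far above those of Bcl2 (lowest 197 against highest 55.3 CPM per kb), whereas Bcl2 and Bax overlapped. Bak1, the second effector, lay below Bax without overlap, at 26.0 ± 1.33 CPM per kb. Then came Bcl2l11 at 12.9 ± 0.810, Bcl2l1 at 11.02 ± 1.17, Bid at 10.2 ± 0.755 and Bbc3 at 9.86 ± 0.520 CPM per kb, each overlapping its neighbour in the order. Bad (5.20 ± 0.413) and Pmaip1 (4.41 ± 1.55 CPM per kb) were lowest, overlapped each other and lay below all Bbc3 values. The 2 most abundant anti-apoptotic transcripts thus stood above each of the BH3-only genes in every WT library. With the longest transcript in place of all exons, Bcl2 (64.9) and Bax (61.4 CPM per kb) drew closer still and Mcl1 kept 210.

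**Figure D1:**
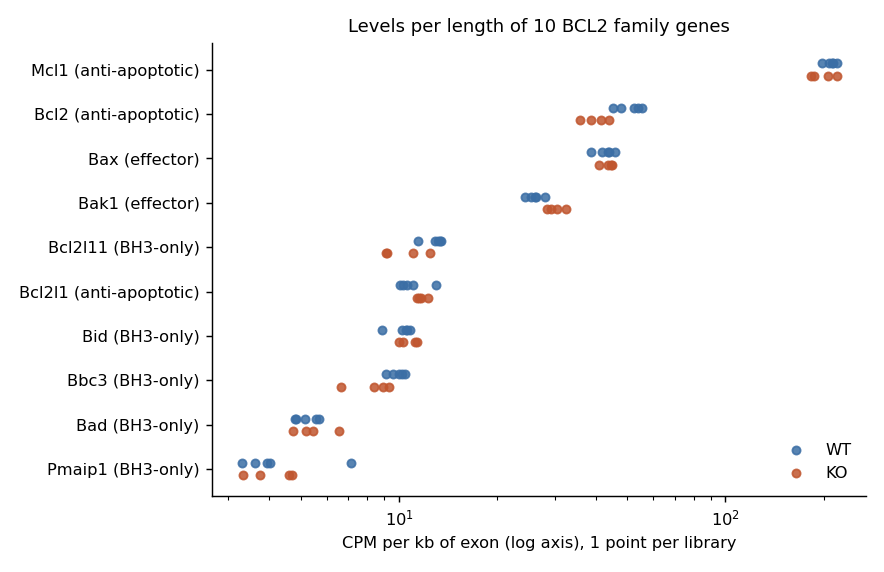
Levels per length of the 10 members, with CPM per kb of exon on a log axis and 1 point per library (blue WT, orange KO). Mcl1 lies between 182 and 219 CPM per kb, Bcl2, Bax and Bak1 between 24.3 and 55.3, and the other 6 genes at or below 13.5.

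Among the anti-apoptotic genes, Bcl2 was lower in all 4 KO libraries than in any WT library. Bcl2 (ENSMUSG00000057329.7, mm10 chromosome 1, 106538178 to 106714274, minus strand) encodes the founding member of the family, which guards mitochondria and binds BIM. Its level was 414, 438, 494, 507 and 480 CPM in WT 1 to WT 5 and 354, 380, 402 and 328 CPM in KO 1 to KO 4. The groups did not overlap, although WT 1 and KO 3 lay close together. The mean fell by 21.6%, from 467 ± 39.0 to 366 ± 32.1 CPM, which gave KO over WT -0.35 ± 0.07 (SE) as log2 fold change, with a 95% interval of -0.51 to -0.19 (edgeR adjusted p = 0.026). In bulk RNA, fewer cells with high Bcl2 and less Bcl2 RNA per cell cannot be told apart. The call ended when WT 3, WT 4, WT 5, KO 1 or KO 4 was left out (edgeR adjusted p up to 0.0765). Without KO 1 and KO 4 together the log2 fold change was -0.26 (adjusted p = 0.186), and without these and WT 1 it was -0.30 (adjusted p = 0.0233). WT 1 had the lowest Bcl2 level of the WT libraries, so leaving it out by itself raised the WT mean.

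Mcl1 and Bcl2l1 did not pass the test. Mcl1 (chromosome 3, 95658788 to 95663176) was at 726, 673, 732, 749 and 712 CPM in WT and at 638, 748, 704 and 623 CPM in KO. Its 2 lowest values were those of KO 1 and KO 4, while KO 2 and KO 3 lay within the WT range. The log2 fold change was -0.08 (95% interval -0.20 to 0.04, edgeR adjusted p = 0.402), and it turned to 0.013 without KO 1 and KO 4. Bcl2l1 (chromosome 2, 152780668 to 152831728), whose product BCL-XL binds both effectors and most BH3-only proteins, was at 50.8, 59.7, 48.7, 47.2 and 46.3 CPM in WT and 52.9, 52.1, 53.5 and 56.4 CPM in KO. Each KO library lay above 4 of the 5 WT libraries and below WT 2. The difference was 0.09 on the log2 scale (interval -0.06 to 0.24, edgeR adjusted p = 0.482). As a share of the summed anti-apoptotic CPM, Bcl2 went from 37.7% ± 1.76 (SD) in WT to 33.3% ± 1.152 in KO, without overlap. The share of Mcl1 went from 58.2% ± 1.57 to 61.8% ± 1.19, with overlap. These are shares of 1 sum, so a lower share of Bcl2 raises the others, and the CPM of Mcl1 itself was not higher in KO.

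**Figure D2:**
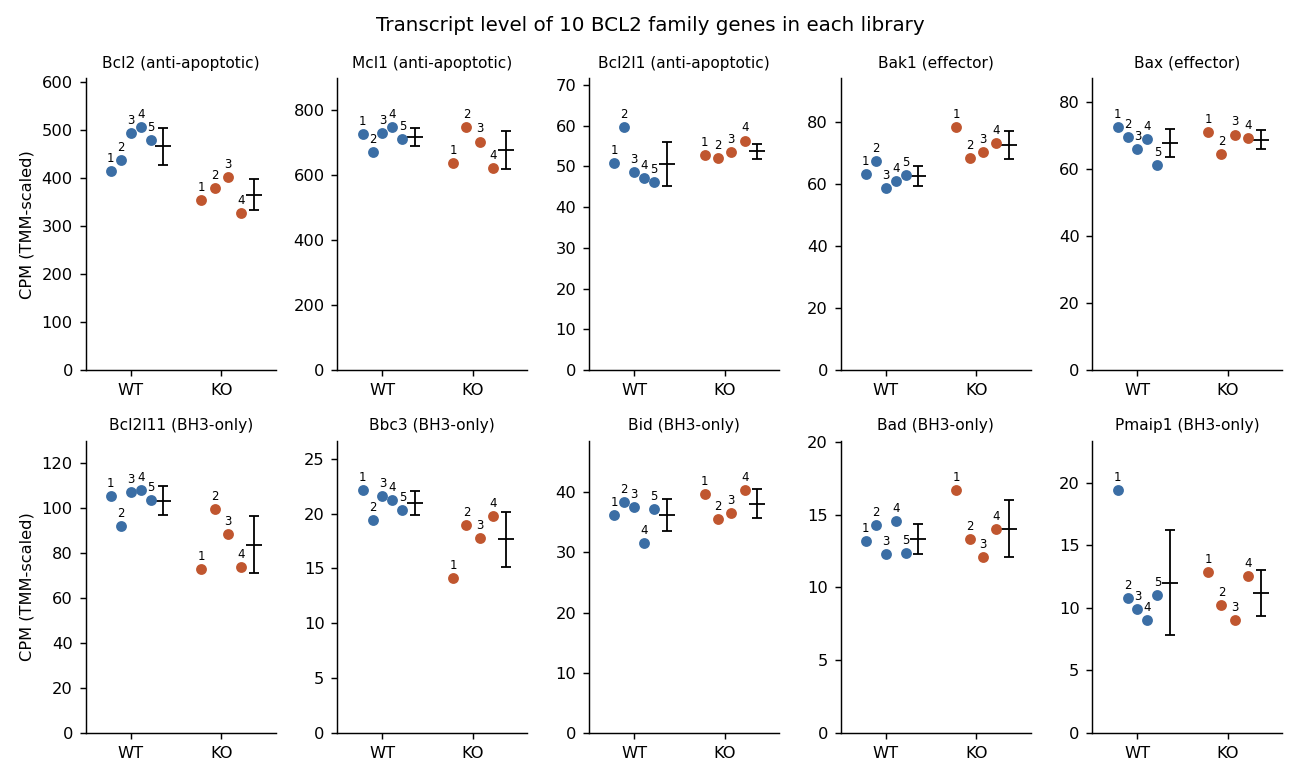
CPM of each of the 10 members by library, 1 panel per gene with axes from 0, where the number beside a point is the library's number in its group and the bar is the mean with the SD. The KO points lie below all WT points for Bcl2 and above all WT points for Bak1, and overlap them for the other 8 genes.

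Of the effectors, Bak1 rose and Bax did not pass. Bak1 (ENSMUSG00000057789.14, chromosome 17, 27019810 to 27029009, minus strand) encodes BAK, which sits in the outer membrane and is restrained there by MCL1 and BCL-XL. It was at 63.1, 67.2, 58.5, 60.9 and 62.9 CPM in WT 1 to WT 5 and at 78.3, 68.2, 70.2 and 73.2 CPM in KO 1 to KO 4. The groups did not overlap, with WT 2 and KO 2 close together. Bak1 went from 62.5 ± 3.20 to 72.5 ± 4.36 CPM, 15.9% higher, with a log2 fold change of 0.21 ± 0.05 (SE, interval 0.10 to 0.33, edgeR adjusted p = 0.046). This call lay near the threshold: it ended without WT 1, WT 3, WT 4, WT 5, KO 1, KO 3 or KO 4 (adjusted p up to 0.126), and with library totals as the only scaling (edgeR adjusted p = 0.0536). Without KO 1 and KO 4 together it was at 0.14 (adjusted p = 0.289).

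Bax (chromosome 7, 45461697 to 45466898), the effector that moves from the cytosol to mitochondria, was at 72.4, 69.4, 66.0, 68.9 and 61.2 CPM in WT and at 70.9, 64.5, 70.2 and 69.0 CPM in KO. All 4 KO values lay within the WT range. The log2 fold change was 0.023, with an interval of -0.09 to 0.14 (edgeR adjusted p = 0.835), and its sign turned in 3 of 20 alternative fits. The ratio of Bak1 to Bax CPM was 0.927 ± 0.0673 (SD) in WT and 1.06 ± 0.0426 in KO, with WT 5 (1.03) above KO 3, where the 2 genes had the same count.

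The BH3-only genes had no member past the test, and they did not move as 1 group. Bcl2l11 (chromosome 2, 128126038 to 128162547), which encodes BIM, the BH3-only protein best known for killing lymphocytes deprived of cytokine, was at 105, 92.1, 107, 108 and 104 CPM in WT. In KO it was at 73.1, 99.8, 88.6 and 73.8 CPM. KO 1, KO 3 and KO 4 lay below every WT library and KO 2 above WT 2. The log2 fold change was -0.30 ± 0.09 (SE, interval -0.51 to -0.10), with edgeR adjusted p = 0.103. DESeq2 gave it an adjusted p of 0.0218, and edgeR without KO 2 gave 0.02. Without KO 1 and KO 4 it was at -0.14 (edgeR adjusted p = 0.410).

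Bbc3 (chromosome 7, 16308393 to 16318205), encoding PUMA, a p53 and FOXO target that binds all anti-apoptotic members, was at 22.2, 19.4, 21.6, 21.2 and 20.3 CPM in WT and 14.1, 19.0, 17.8 and 19.7 CPM in KO. KO 1 was the lowest of all, and only KO 4 reached into the WT range. The difference was -0.25 (interval -0.45 to -0.05, edgeR adjusted p = 0.148). It was -0.15 without KO 1 and -0.19 without KO 1 and KO 4. The remaining 3 genes differed by less. Bid (chromosome 6, 120891930 to 120916853), cut by caspase 8 to link death receptors to mitochondria, was at 36.3, 38.3, 37.6, 31.6 and 37.2 CPM in WT and 39.8, 35.6, 36.6 and 40.4 CPM in KO (log2 fold change 0.07, interval -0.07 to 0.21, edgeR adjusted p = 0.533). Bad (chromosome 19, 6941861 to 6951899), which is held inactive by phosphorylation and 14-3-3 proteins, was at 13.2, 14.2, 12.3, 14.5 and 12.3 CPM in WT and 16.7, 13.3, 12.1 and 14.0 CPM in KO (0.08, interval -0.14 to 0.30, adjusted p = 0.697). For both, the groups overlapped, and the sign turned without KO 1 and KO 4 (Bid -0.0077, Bad -0.07).

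Pmaip1, which encodes NOXA, the partner that targets MCL1 for degradation, was at 19.5, 10.8, 9.90, 9.01 and 11.02 CPM in WT and 12.9, 10.3, 9.06 and 12.6 CPM in KO. WT 1 lay well above the other 8 libraries, and the groups overlapped. The log2 fold change was -0.10 (interval -0.61 to 0.40, edgeR adjusted p = 0.827), and it was 0.14 without WT 1 (adjusted p = 0.554) and -0.32 without KO 1 and KO 4. With 137 to 322 counts per library it was the member with the fewest counts.

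**Figure D3:**
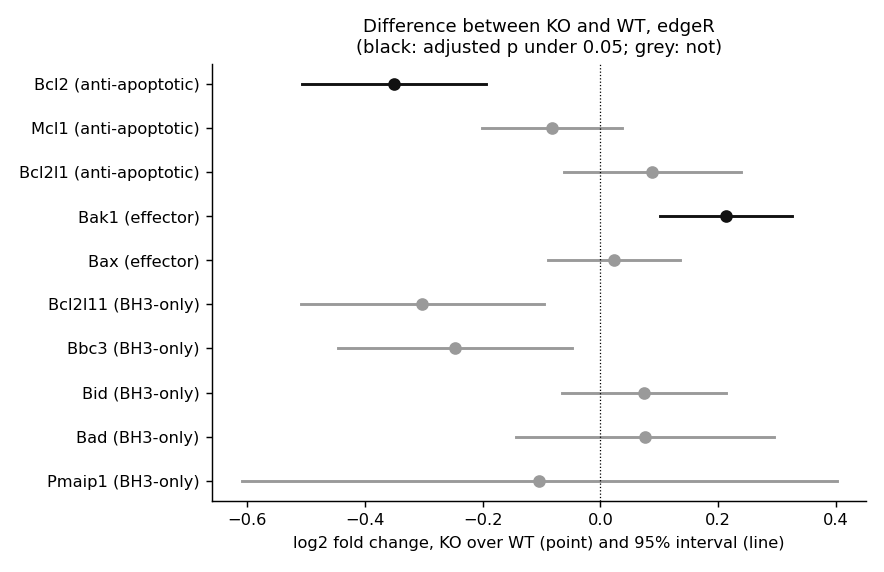
Log2 fold change, KO over WT, of the 10 members from edgeR (point) with its 95% interval (line), black where the adjusted p was under 0.05. Bcl2 (-0.35) and Bak1 (0.21) are black, the intervals of Bcl2l11 and Bbc3 lie below 0 with adjusted p over 0.05, and the other 6 intervals cross 0.

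Counted together, 2 of the 10 members were called against 3.28% of all genes tested, 1 of them higher (1.40% of all genes were called higher) and 1 lower (1.88% called lower). WT and KO libraries did not overlap for 2 of 10, against 9.07% of all genes. Both calls were known from earlier work on these data when the family was put together, so the counts are descriptions. Of the 10 log2 fold changes 5 were positive, and their median was -0.03 against 0.0052 for all genes tested. The absolute change of Bcl2 was somewhat above the median of 0.29 for called genes, and that of Bak1 below it.

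The balance of the family, taken as the summed CPM of the 3 anti-apoptotic genes over that of the 7 pro-apoptotic genes, was slightly lower in KO, with overlap. It was 3.59, 3.76, 4.07, 4.14 and 4.01 in WT 1 to WT 5 and 3.42, 3.80, 3.81 and 3.33 in KO 1 to KO 4. KO 1 and KO 4 lay below all WT libraries, while KO 2 and KO 3 lay above WT 1 and WT 2. The means were 3.91 ± 0.233 and 3.59 ± 0.253 (SD), a difference of -0.13 on the log2 scale, and no test is given for a score over chosen genes. Without KO 1 and KO 4 the difference was -0.04, and with Mcl1 left out of the sum it was -0.26. The sum over anti-apoptotic genes went from 1235 ± 55.0 to 1098 ± 85.1 CPM and that over pro-apoptotic genes from 316 ± 9.25 to 306 ± 3.40 CPM.

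Split by kind, the mean ratio was lower in KO against the effectors and nearly equal against the BH3-only genes. The anti-apoptotic sum over Bax and Bak1 was 8.79, 8.58, 10.2, 10.04 and 9.98 in WT and 7.003, 8.89, 8.26 and 7.08 in KO (means 9.52 ± 0.776 and 7.81 ± 0.925, SD). KO 2 lay above WT 1 and WT 2, and the other 3 KO libraries below all WT libraries. The log2 difference was -0.29, and -0.15 without KO 1 and KO 4. Over the 5 BH3-only genes the same sum gave 6.66 ± 0.364 in WT and 6.66 ± 0.326 in KO. There the groups covered nearly the same range, 6.06 to 7.06 and 6.27 to 7.07, since the sum of BH3-only CPM was lower in KO as well (186 ± 7.81 against 165 ± 9.31 CPM). Most of that lower sum came from Bcl2l11 alone, with means of 103 CPM in WT and 83.8 CPM in KO. Bbc3 (20.9 and 17.7) and Pmaip1 (12.0 and 11.2 CPM) were lower too, while Bid (36.2 and 38.1) and Bad (13.3 and 14.0 CPM) were higher.

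Ratios were also taken for every anti-apoptotic gene over every pro-apoptotic gene, whether or not their products are known to bind. Of the 21 pairs of 1 anti- and 1 pro-apoptotic gene, 3 had ratios that did not overlap between the groups. The pairs reuse the same genes, and no such share was computed over pairs of all genes, so the count is a description. For single genes the share without overlap was 9.07% of all tested. Bcl2 over Bak1 was 6.56, 6.52, 8.44, 8.32 and 7.64 in WT and 4.52, 5.57, 5.73 and 4.48 in KO, so that every KO library lay below every WT library. This follows from the levels of the genes. Bcl2 was lower and Bak1 higher in every KO library than in any WT library, so their ratio could not overlap. Bcl2 over Bid was 11.4 to 16.0 in WT and 8.11 to 10.99 in KO. Mcl1 over Bcl2l11 went the other way, from 6.89, 7.31, 6.83, 6.92 and 6.86 in WT to 8.73, 7.49, 7.95 and 8.44 in KO. It was the tightest of the 3 in WT (6.96 ± 0.198, SD) and higher in every KO library. Bcl2 over Bcl2l11 was 4.52 ± 0.336 in WT and 4.41 ± 0.437 in KO and overlapped, both genes being lower in KO.

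**Figure D4:**
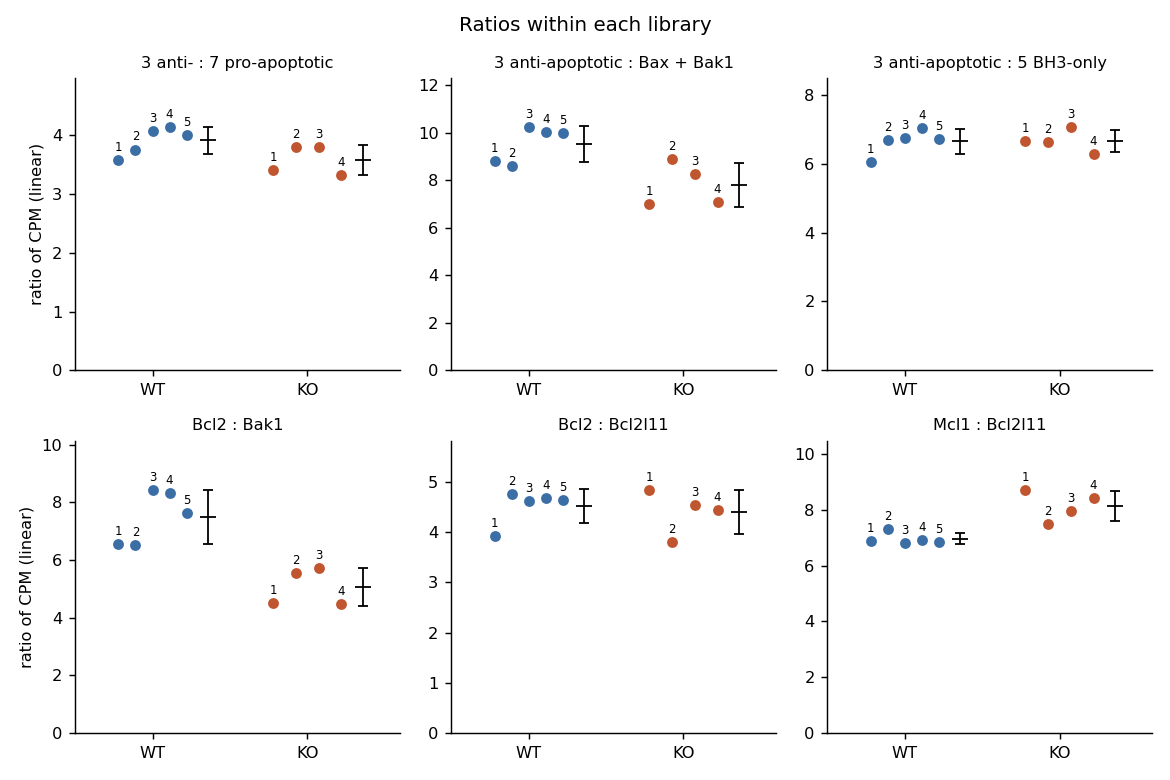
Ratios of CPM within each library on linear axes from 0, with library numbers beside the points and the mean and SD as a bar. The groups overlap in the 3 upper panels (sums) and for Bcl2 to Bcl2l11, the KO points lie below all WT points for Bcl2 to Bak1 and above them for Mcl1 to Bcl2l11.

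Markers of Treg cell state and of other cells were summed in each library, to stand beside these values. The summed CPM of 6 markers of resting Treg cells (Ccr7, Tcf7, Lef1, S1pr1, Klf2 and Satb1) was 2602 to 2950 in WT, 2299.5 in KO 1 and 2251 in KO 4, and 2786 in KO 2 and 2782 in KO 3, within the WT range. All 6 had negative log2 fold changes, with a median of -0.12, and 0 were called by edgeR. KO 1 and KO 4, lowest in this sum, were also lowest in Bcl2, Bcl2l11 and Mcl1. The summed CPM of 10 effector Treg markers was 839 to 984 in WT and 1252, 881, 1013 and 1131 in KO 1 to KO 4, and Bak1 was highest in KO 1 and KO 4. Bcl2 was at 380 CPM in KO 2 and 402 CPM in KO 3. Of the 10 effector markers 2 were called higher. Plasma cell markers (7 genes) summed to 192 to 251 CPM in WT and 355, 230.5, 268 and 726 CPM in KO, macrophage markers (8 genes) to 21.2 to 71.0 and 24.4 to 122 CPM. Neutrophil markers (6 genes) summed to 0.424 to 4.41 CPM in WT and 0.578 to 24.9 CPM in KO, and B cell markers (6 genes) to 31.9 to 40.3 and 36.5 to 52.2 CPM. CD8 T cell markers summed to 9.77 to 13.5 and 11.8 to 13.7 CPM, NK cell markers to 9.08 to 11.3 and 9.13 to 12.8, dendritic cell markers to 2.36 to 4.65 and 2.82 to 7.17, and erythroid markers to 3.62 to 15.5 and 1.80 to 22.1 CPM in WT and KO. KO 1 and KO 4 had the highest macrophage (76.2 and 122 CPM) and neutrophil sums (15.4 and 24.9 CPM) of all libraries. The same held for the B cell (52.2 and 45.0 CPM) and dendritic cell sums (6.61 and 7.17 CPM). In each of those sums KO 2 and KO 3 lay within the WT range. In the CD8 T cell, NK cell and erythroid sums KO 1 and KO 4 did not both lie above the rest. None of the markers of other cells was at 0 in all libraries, and 1 of them (a plasma cell marker) was called higher. The plasma cell and effector Treg lists share a gene, so their sums and calls are not separate. The part of these markers in the results on Bcl2, Bcl2l11 and Bak1 was not tested.

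Neighbouring and overlapping genes were compared with the 2 called members. Within 500 kb of Bcl2, 3 other genes were tested and 1 passed, Kdsr, a sphingolipid reductase gene, at -0.20 (edgeR adjusted p = 0.043). Within 500 kb of Bak1, 0 of 13 passed. Exons of Bcl2 share 558 bases with the antisense gene D630008O14Rik, which had 0 to 4 counts per library. Exons of Bak1 share 614 bases with Ggnbp1 on the opposite strand (48 to 69 counts), those of Bid 628 bases with Bcl2l13 (1091 to 1250 counts) and those of Bad 524 bases with Gpr137 (220 to 293 counts). Whether counting used strand is unknown, so reads in these stretches cannot be assigned with certainty. Exons of Bax share 192 bases with Gm45808, a gene on the same strand that is not among the deposited genes. There, strand would not separate the reads.

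The rest of the apoptosis pathway was read from 10 lists that hold 106 further genes, of which 98 were tested. There, 3 passed, 2 higher and 1 lower, and 11 of 98 did not overlap between the groups. These shares lie near those of all genes (3.28% and 9.07%). Ywhab, which encodes a 14-3-3 protein that holds phosphorylated BAD in the cytosol, was at 248, 261, 248, 267 and 267 CPM in WT and rose to 277, 324, 320 and 297 CPM in KO (0.24 ± 0.05, SE, edgeR adjusted p = 0.0242). Birc3, encoding the ubiquitin ligase cIAP2 that restrains death receptor signalling, fell from 170 ± 3.52 to 153 ± 5.29 CPM (-0.15 ± 0.04, adjusted p = 0.0411). Ccng1, a p53 target that encodes cyclin G1, rose from 169 ± 7.03 to 191 ± 7.19 CPM (0.17 ± 0.04, adjusted p = 0.046). Each of the 3 calls ended when WT 3, WT 4, WT 5, KO 3 or KO 4 was left out, those of Birc3 and Ccng1 also without WT 1, and that of Ccng1 also without KO 2 (edgeR adjusted p up to 0.127). Without KO 1 and KO 4 together, the calls of Birc3 (edgeR adjusted p = 0.164) and Ccng1 (0.0843) ended.

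Other family members did not pass. Of 6 further anti-apoptotic genes 3 were tested, with Bcl2l2 (BCL-W) at the smallest p (-0.23, edgeR adjusted p = 0.219). The copies of Bcl2a1 are near-identical, so their counts are uncertain. Of 5 further pro-apoptotic genes 3 were tested, with Bmf, a BH3-only gene, at -0.47 with an interval of -1.71 to 0.77 (adjusted p = 0.648), and at -0.14 without WT 3 or without KO 4. Among 8 more distant relatives and mitophagy receptors 0 passed, with Bcl2l15 at 0.34 (adjusted p = 0.451), and at 0.16 without KO 1.

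Downstream of the mitochondria, 0 of 13 genes of the apoptosome and the caspases passed, although 10 of 13 were positive (51.5% of all genes tested were). Their median was 0.07, and the smallest p belonged to Dffb, the nuclease that cuts DNA in apoptosis (-0.15, edgeR adjusted p = 0.218, and -0.07 without KO 1 and KO 4). In the death receptor arm 0 of 10 passed, with Fas, the receptor itself, at -0.15 (adjusted p = 0.167), and at -0.08 without KO 1 and KO 4. Of 13 tested genes of p53 and its targets Ccng1 passed, and of 8 caspase inhibitors Birc3 passed. Among 21 tested regulators of the family Ywhab alone passed, with a median of -0.02. Of 13 partners at the outer membrane and its contacts 0 passed, with Itpr2, a calcium channel of the endoplasmic reticulum, at -0.17 (edgeR adjusted p = 0.058, called by DESeq2). Of 7 survival cytokine receptors 0 passed, and 4 were positive and 3 negative. The smallest p was that of Il2rg, the shared gamma chain of the receptors for interleukin-2 and interleukin-7, at 0.14 (edgeR adjusted p = 0.0634, called by DESeq2). Il7r, the specific chain of the interleukin-7 receptor, was at -0.23 (edgeR adjusted p = 0.125, called by DESeq2), and Il2ra, that of the interleukin-2 receptor, at -0.18 (edgeR adjusted p = 0.146).

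**Figure D5:**
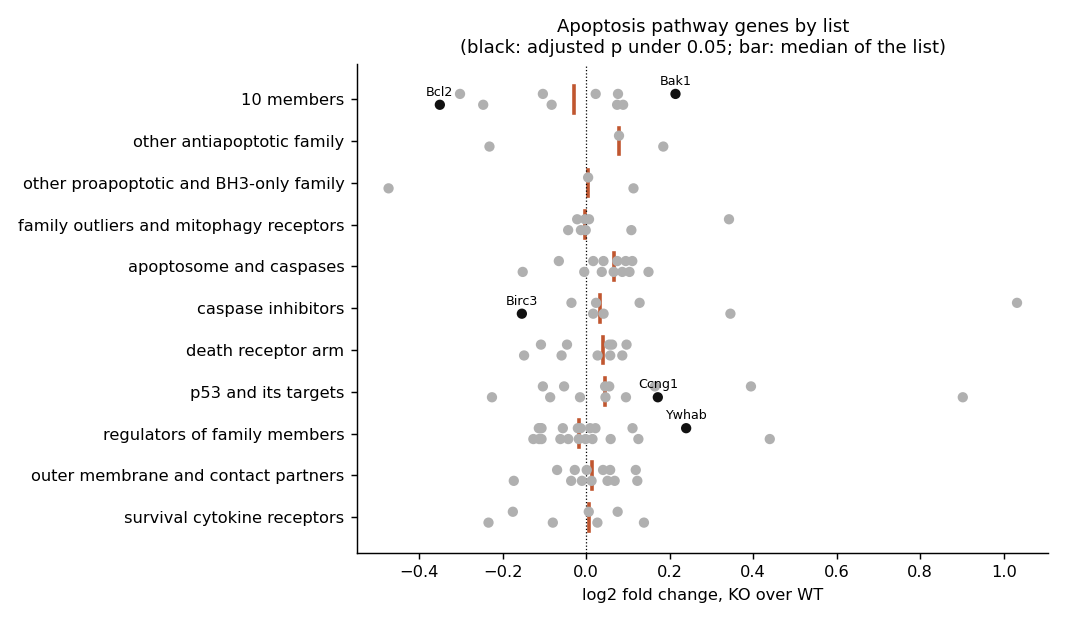
Log2 fold changes, KO over WT, of the tested genes of each apoptosis list and of the 10 members, 1 point per gene, black where the edgeR adjusted p was under 0.05, with the list's median as a bar. All medians lie between -0.03 and 0.08, and the 5 black points are Bcl2, Bak1, Birc3, Ccng1 and Ywhab.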

How the data were processed

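Per the labels' protocols, total RNA of each mouse went into a stranded Illumina library. The authors deposited whole-number counts by gene symbol, unscaled. STAR 2.7, DESeq2 and mm10 appear in the submitters' processing notes, with no role. Counting program, annotation and use of strand: not given in the sources used here. Samples were grouped by their titles. The counts of all genes were compared in edgeR 4.0.16 under R 4.3.3 (robust quasi-likelihood fit, TMM scaling, default expression filter, group as the only term), two-sided, with Benjamini-Hochberg adjustment over all 12738 genes and a threshold of 0.05. Standard errors and 95% intervals were derived from the F statistic. The test was tested on simulated data. Because libraries came from separate mice, p-values measure the spread between mice. Exon lengths and positions came from GENCODE M21 (mm10), promoters from RefSeq (GRCm38.p6). The members and lists were chosen with earlier results of these data known. Named genes are the members and, per list, the called genes (at most 4) or else the gene with the smallest p. Il7r, Il2ra and the genes under other observations are named outside this rule, with their values known. Alternatives were other scalings and filters, DESeq2 1.42.0, limma-voom (limma 3.58.1), replicate blocks and leaving out libraries. Intervals and floors from counts cover counting error only, as no molecular identifiers are mentioned. 1 marker of resting Treg cells is not reported here, and the sum over the other 6 was added after the data were seen.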

Additional observations from a re-analysis of the deposited data

Results flagged for a closer look

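In 7 of 52 groups (26 quantities in WT and in KO), 1 library lay further from the rest than Dixon's 95% limit allows, and chance gives about 1 in 20, or 2.6. All 7 were WT libraries, but the limit is harder to exceed with 4 libraries than with 5. The ratios reuse the levels of the members, so the flags are not separate. Pmaip1 was at 19.5 CPM in WT 1 against 9.01 to 11.02 in the other 4. Bcl2l11 was at 92.1 CPM in WT 2 against 104 to 108. The ratio of Bcl2 to Bcl2l11 was 3.93 in WT 1 against 4.61 to 4.76, and that of Mcl1 to Bcl2l11 was 7.31 in WT 2 against 6.83 to 6.92. WT 3 held the others, with Bcl2l2 at 12.3 CPM (13.5 to 13.9 elsewhere), Bmf at 19.0 CPM (7.04 to 10.46) and Il2rg at 327 CPM (345 to 349.6).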

How the results depend on the processing

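Bcl2 and Bak1 kept their direction in all 20 alternative fits, with Bcl2 between -0.40 and -0.26 and Bak1 between 0.14 and 0.24. Members called, 2 with all libraries, came to 0 to 3 when 1 library was left out, 0 without KO 1 and KO 4, 1 without these and WT 1, and 1 with library totals as the only scaling. Genes called, 418 with all libraries, came to 97 (without WT 3) to 697 (without WT 2), with 103 without KO 4, 117 without WT 5, 134 without WT 4 and 182 without KO 3. They came to 118 without KO 1 and KO 4, 250 without these and WT 1, and 906 by DESeq2. Pathway genes called, 3 with all libraries, came to 0 to 5 without 1 library, 1 without KO 1 and KO 4, 1 with no filter on low counts, 6 with genes of mean CPM under 5 left out, and 9 by DESeq2. The cause of these shifts was not tested. The ratio of anti- to pro-apoptotic genes (-0.13, log2) was -0.26 without Mcl1 and stayed negative in its other alternatives, between -0.16 and -0.04. Signs turned for Mcl1 without KO 1 and KO 4 (0.013) and without these and WT 1 (0.016), for Bid (-0.0077 and -0.0089) and for Bad (-0.071 and -0.076), and for Bad in the range of -0.021 to 0.14 without 1 library. Bax was at -0.0080 without KO 1 and KO 4, at -0.011 with the title number as a block and between -0.014 and 0.051 without 1 library, and Pmaip1 between -0.20 and 0.14. The other scalings moved the median of all genes by at most -0.0038. With the title's replicate number as a replicate block, 26 genes, 0 members and 0 pathway genes were called, and with the number in the brackets 443, 3 and 3, Bcl2l11 among the members (edgeR adjusted p = 0.0371). Same-numbered libraries showed little common deviation over all genes (correlations of -0.07 to 0.10 and of -0.26 to 0.10). Not every WT library correlated best with the KO library of its number. With so few libraries, these correlations cannot show whether a number stands for a shared batch, which was not tested. The fewest counts per library among the members were those of Pmaip1 (137 to 322) and Bad (184 to 293). For Pmaip1 the spread between WT libraries was wide as well, with an SD of 35.1% of the mean.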

Other observations

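The genes given here were chosen after their values were seen. Besides Ywhab, the 14-3-3 gene Ywhaz was at 296 to 329 CPM in WT and 335 to 353 CPM in KO, without overlap (0.12, edgeR adjusted p = 0.0999), and the 14-3-3 gene Ywhae at 204 to 240.5 and 225 to 241 CPM (0.11, adjusted p = 0.210). Tmbim6, which encodes the BAX inhibitor-1 protein of the endoplasmic reticulum, was at 456 to 484 CPM in WT and 499.6 to 527 CPM in KO, again without overlap (0.12, adjusted p = 0.0674). Cdkn1a, the p53 target that halts the cell cycle, was low and did not overlap, at 1.17 ± 0.387 CPM (SD, n = 5) and 2.20 ± 0.376 CPM (n = 4), a log2 fold change of 0.90 (edgeR adjusted p = 0.0716). Birc5, encoding survivin, which is expressed in dividing cells, was at 5.08, 18.1, 5.796, 8.81 and 7.08 CPM in WT and 23.9, 9.95, 11.3 and 28.1 CPM in KO, with KO 1 and KO 4 above all others and WT 2 above KO 2 and KO 3 (1.03, adjusted p = 0.262). Lower in KO without overlap were Stat5b, a transcription factor gene of the interleukin-2 pathway, at 387 ± 6.79 CPM (SD) in WT and 359 ± 19.0 CPM in KO (-0.11, edgeR adjusted p = 0.148), and Mapk8, which encodes the kinase JNK1, at 43.4 ± 1.35 and 40.1 ± 1.29 CPM (-0.11, adjusted p = 0.176).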
